A study of Mus musculus with 2 samples.

Results

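Dense clusters of distal open regions are stretches of the genome in which several sites of accessible DNA lie close together, away from annotated transcription start sites. Accessible DNA had been mapped by DNase-seq, in which DNase I cuts DNA where it is not wrapped in nucleosomes and the cut ends are sequenced. The clusters were selected on the peak calls themselves. Overlapping peaks of the libraries were joined into regions, autosomal regions with a peak of both libraries and over 1 kb from every GENCODE M21 start site were kept as distal, and neighbouring distal regions were chained where the gap between them was at most 5 kb. Regions in chains of 4 or more were the members. They numbered 759 of 31731 distal regions (2.39%), out of 52301 autosomal regions shared by both libraries, and formed 168 chains. Another 22793 distal regions (71.8%) stood alone, and 8179 lay in chains of 2 or 3 (3248 pairs and 561 triples).

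The tissue was frontal cortex taken at 14 days of age from males of B6CASTF1/J, the F1 hybrid of a laboratory and a wild-derived strain. It formed 1 group of 2 libraries, replicate 1 and replicate 2, and the label of each library names 3 males. The labels give separate tissue samples and a common donor number, so the spread between the libraries may be partly technical. No contrast between conditions exists, and no p-value was computed. Replicate 1 had 75753 peaks and replicate 2 had 77035, of median height 0.848 and 0.801. Peak height is the authors' deposited signal value, whose scale is set per library and is not stated, so heights are given per library as replicate 1 and then replicate 2. Read depth was not used here. As a check of the tissue label, shared regions lay at start sites of 12 of 14 autosomal genes of excitatory neurons, 13 of 14 of cortical layers, 9 of 14 of interneurons, 10 of 14 of astrocytes and 7 of 10 of oligodendrocyte precursors. The counts were lower for other cells that cortex holds, at 2 of 11 for myelin, 4 of 12 for microglia and 5 of 12 for vessels. Among lists of other tissues they were 1 of 12 for liver, 3 of 11 for blood and 2 of 10 for choroid plexus and ependyma, but 7 of 10 for striatum, so the check does not set cortex apart from striatum. In tissue that was not sorted, a low peak can come from few cells or from little opening per cell, and these cannot be told apart.

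Regulatory elements away from promoters include enhancers, which bind transcription factors and act on genes over a distance. Groups of closely spaced enhancers are known to lie near genes that set a cell's identity. Transfer RNA (tRNA) genes are a different source of open DNA away from protein-coding genes: they are short, are copied by RNA polymerase III from promoter elements inside the gene named the A box and the B box, and many lie in genomic clusters. The GENCODE start sites used for the distance rule included none of the nuclear tRNA genes, so regions over tRNA genes could count as distal.

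The sequences below are those of the tallest member in each of the 5 chains with most members and of the chains with the highest summed heights, to show how unlike these chains are in kind. All are the plus strand of the mm10 reference, which is that of C57BL/6J and may differ from the other parental strain of the hybrid. Capitals mark a tRNA gene of the RefSeq annotation, in the chains near Olfr1423, at Ctc1 and near Hfe2. In the chain beside the 4.5S RNA gene they mark the run of letters shared with that gene, and in the others consensus letters: CAGATG, the E-box of NeuroD and Neurog factors, on either strand; CACGTG, the E-box of Clock and Myc factors; and TTGGCA, a partial site of NFI factors. For members over 300 bases the middle 300 are given.
B4galt5 chain, chr2:167299471-167299770: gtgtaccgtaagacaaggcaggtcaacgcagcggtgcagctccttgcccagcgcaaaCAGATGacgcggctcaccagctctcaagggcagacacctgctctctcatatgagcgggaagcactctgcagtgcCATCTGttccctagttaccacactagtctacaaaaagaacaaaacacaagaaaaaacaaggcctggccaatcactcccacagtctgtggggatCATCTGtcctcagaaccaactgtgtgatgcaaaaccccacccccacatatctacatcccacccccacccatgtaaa
chain near Olfr1423 with n-TVtac2, chr19:12012221-12012500: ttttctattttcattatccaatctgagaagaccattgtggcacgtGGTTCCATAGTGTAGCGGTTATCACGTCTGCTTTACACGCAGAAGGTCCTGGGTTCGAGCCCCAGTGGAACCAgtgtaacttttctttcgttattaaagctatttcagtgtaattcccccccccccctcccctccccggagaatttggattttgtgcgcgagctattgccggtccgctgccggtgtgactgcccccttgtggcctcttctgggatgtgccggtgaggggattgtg
chain beside the 4.5S RNA gene, chr6:47650741-47651020: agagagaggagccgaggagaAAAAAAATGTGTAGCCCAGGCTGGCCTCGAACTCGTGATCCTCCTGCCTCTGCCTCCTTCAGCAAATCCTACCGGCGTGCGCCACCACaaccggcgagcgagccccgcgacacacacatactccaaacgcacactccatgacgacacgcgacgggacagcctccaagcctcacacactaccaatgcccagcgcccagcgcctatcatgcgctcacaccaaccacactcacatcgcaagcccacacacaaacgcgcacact
chain at Ctc1 with n-TWcca7, chr11:69041681-69041940: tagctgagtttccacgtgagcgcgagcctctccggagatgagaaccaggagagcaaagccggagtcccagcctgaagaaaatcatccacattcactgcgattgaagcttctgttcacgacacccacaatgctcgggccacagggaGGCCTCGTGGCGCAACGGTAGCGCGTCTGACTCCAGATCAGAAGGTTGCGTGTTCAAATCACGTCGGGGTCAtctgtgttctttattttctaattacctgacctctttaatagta
chain near Hfe2 with n-THgtg8 on the minus strand, chr3:96500341-96500580: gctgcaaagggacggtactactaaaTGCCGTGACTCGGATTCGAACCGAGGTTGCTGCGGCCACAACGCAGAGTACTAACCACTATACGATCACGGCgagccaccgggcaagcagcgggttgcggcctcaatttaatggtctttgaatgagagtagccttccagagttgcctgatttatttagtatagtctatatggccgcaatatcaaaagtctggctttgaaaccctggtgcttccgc
chain between Nr1d1 and Msl1, chr11:98783381-98783640: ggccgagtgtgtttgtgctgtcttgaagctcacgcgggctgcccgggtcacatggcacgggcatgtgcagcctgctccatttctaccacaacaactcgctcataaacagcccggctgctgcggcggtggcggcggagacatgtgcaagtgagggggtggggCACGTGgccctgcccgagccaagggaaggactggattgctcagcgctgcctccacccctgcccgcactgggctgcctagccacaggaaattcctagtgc
Ptma chain, chr1:86525281-86525520: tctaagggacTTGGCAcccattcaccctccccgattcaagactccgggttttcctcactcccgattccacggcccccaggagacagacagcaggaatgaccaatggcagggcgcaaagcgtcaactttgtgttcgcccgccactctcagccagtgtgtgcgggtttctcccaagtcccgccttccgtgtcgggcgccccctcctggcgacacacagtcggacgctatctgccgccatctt

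A B box is one of the parts by which tRNA genes are recognised, and tRNA genes in different chains can be identical. The next sequences are whole tRNA genes read 5′ to 3′ along their own strand, with the letters GGTTCNA of the B box in capitals.
n-THgtg8, tRNA-His: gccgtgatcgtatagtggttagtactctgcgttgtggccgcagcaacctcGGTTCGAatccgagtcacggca
n-TDgtc9, tRNA-Asp: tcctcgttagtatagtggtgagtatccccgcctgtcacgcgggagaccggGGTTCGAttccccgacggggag
n-TWcca7, tRNA-Trp: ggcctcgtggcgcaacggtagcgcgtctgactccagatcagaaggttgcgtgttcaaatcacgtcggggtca
The letters of n-THgtg8 were the same as those of n-THgtg4 and n-THgtg5 in the chain near Shf, and those of n-TDgtc9 recurred in all 6 tRNA-Asp genes, which lay in 4 chains. Of 41 tRNA genes wholly inside a member, 39 held the B box letters at least once, and n-TWcca7 and n-TMcat14 did not. The 41 genes had 25 different sequences, of which 11 occurred more than once. The letters occurred in 13.6% of members and in 7.18% of all distal regions. This motif was chosen after tRNA genes had been seen among the chains.

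Clusters of tRNA genes were among the largest and tallest chains. In 13 of the 168 chains at least 1 member overlapped a tRNA gene. Such members numbered 42 of 759 (5.53%), against 130 of all 31731 distal regions (0.410%) and 35 of the 22793 lone regions (0.154%). Because tRNA genes lie in clusters, and the rule selects clustered regions, these shares are a description of what the rule picked. The 42 members held 45 of the 386 autosomal tRNA genes, while 186 (48.2%) lay in some shared region and 135 in a distal one. Their products were of 16 amino acid kinds. Leucine led with 10 of its 25 autosomal genes, followed by aspartate with 6 of 16 and histidine with 4 of 11. Of the 10 chains with most members 3 held tRNA genes, as did 4 of the 10 with the highest summed height. The summed height adds the tallest peak of a library over the members, and the 10 were ranked by its mean over both libraries.

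The tRNA chain with the highest summed height lay at chr11:69035961-69041940 and overlapped the end of the gene Ctc1, which encodes a protein of the telomere-binding CST complex, with Aurkb, a mitotic kinase gene, 3707 bp farther on. It had 7 members, 6 of them over tRNA genes, and summed heights of 24.0 and 20.8. From left to right the members stood at 3.79 and 3.74 (no tRNA gene), 3.25 and 2.79 (tRNA-Ile), 1.83 and 1.55 (tRNA-Ser), 3.49 and 1.55 (tRNA-Thr), 2.70 and 2.77 (tRNA-Pro), 3.70 and 3.78 (tRNA-Asp), and 5.21 and 4.60 (tRNA-Trp). The member over the tRNA-Trp gene was tallest in both libraries, and that over the tRNA-Thr gene differed most between them. The height of this chain was spread over its members, the tallest giving 21.7% and 22.1% of the sum, whereas over all chains the tallest member gave a median of 36.3% and 36.2%.

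The tRNA chain with most members lay at chr19:12002221-12013554, between Osbp, an oxysterol-binding protein gene 8109 bp away, and the odorant receptor gene Olfr1423, and had 9 members with 7 tRNA genes in 6 of them. Its summed heights were 19.5 and 14.8. In order the members stood at 1.21 and 1.15 (tRNA-Phe), 1.95 and 1.79, 2.77 and 2.40 (tRNA-Lys), 2.47 and 1.13 (tRNA-Lys), 1.07 and 0.901, 2.36 and 1.42 (tRNA-Leu), 3.09 and 2.43 (tRNA-Arg and tRNA-Val), 3.28 and 2.44 (tRNA-Val), and 1.24 and 1.10. All 9 were higher in replicate 1. The Val genes n-TVtac1 and n-TVtac2 had the same letters and lay in neighbouring members of this chain, those of heights 3.09 and 2.43 and of 3.28 and 2.44.

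Histidine tRNA genes lay in the tallest members of the chains near Shf, an adaptor protein gene, and Hfe2, the gene of hemojuvelin. At chr2:122375481-122378840, 6319 bp from Shf, 5 members summed to 19.7 and 19.1. The members over n-THgtg4, n-THgtg3 and n-THgtg5 stood at 6.28 and 6.06, at 8.43 and 8.47, and at 2.35 and 2.33, and the 2 without a tRNA gene at 1.27 and 1.28 and at 1.37 and 0.976. The 3 histidine members were thus each taller than both of the others, in both libraries. At chr3:96497701-96503400, 21772 bp from Hfe2, 7 members with 5 tRNA genes summed to 16.4 and 13.9. Its tallest member, over n-THgtg8, reached 6.22 and 4.84, and the 4 other members over tRNA genes (Asn, Lys, Gly and Glu) ran from 1.82 to 2.36 in replicate 1 and from 1.21 to 2.09 in replicate 2.

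The other tRNA chains lay beside genes of several kinds. At chr11:58301221-58302740, 4329 bp from the zinc finger gene Zfp692, 4 members within 1520 bp stood at 1.46 and 1.44, 3.25 and 3.09, 3.92 and 4.98 (tRNA-Glu), and 7.95 and 7.01 (tRNA-Leu), and summed to 16.6 and 16.5. In the chains near Rnase12 and near Pllp the sums were 11.4 and 12.5, and 11.0 and 11.2. Lower sums were those near Dhx37, 9.53 and 8.96, near Trim7, 8.43 and 6.64, near Zfp184, 8.35 and 5.98, near Trim27, 7.44 and 6.52, and near Eef2k, 6.68 and 7.87; their order differed between the libraries. The chain near Fcgr4 had the lowest sum of the tRNA chains in both libraries, 6.62 and 5.23. The chain near Zfp184 had the histone gene Hist1h2br on its other side, 97913 bp away. On the other side of the chain near Trim27 lay the odorant receptor gene Olfr1368, 21614 bp away.

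Members over tRNA genes had median heights of 2.57 and 2.35, against 1.32 and 1.21 for the 22 members of the same chains without a tRNA gene. Regions over tRNA genes outside the chains were also tall, with medians of 1.89 and 1.77 for 35 lone regions and 2.21 and 1.68 for 53 regions in chains of 2 or 3. The identical tRNA-Asp genes lay in members of very different height, from 0.752 and 0.525 near Zfp184 to 3.70 and 3.78 at Ctc1 and 3.86 and 2.29 near Zfp184. Reads from identical copies cannot be assigned to 1 copy by their letters. In 88.1% of the members over tRNA genes fewer than 90% of the 31-base words were found only once in the reference, against 8.96% of all members and 2.98% of lone regions. The summed heights of tRNA chains had medians of 11.0 and 11.2, against 5.94 and 6.09 for the other 155 chains, and 10 of the 13 were higher in replicate 1, against 48.4% of the others. The part of repeated sequence in these heights was not tested.

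**Figure D1:**
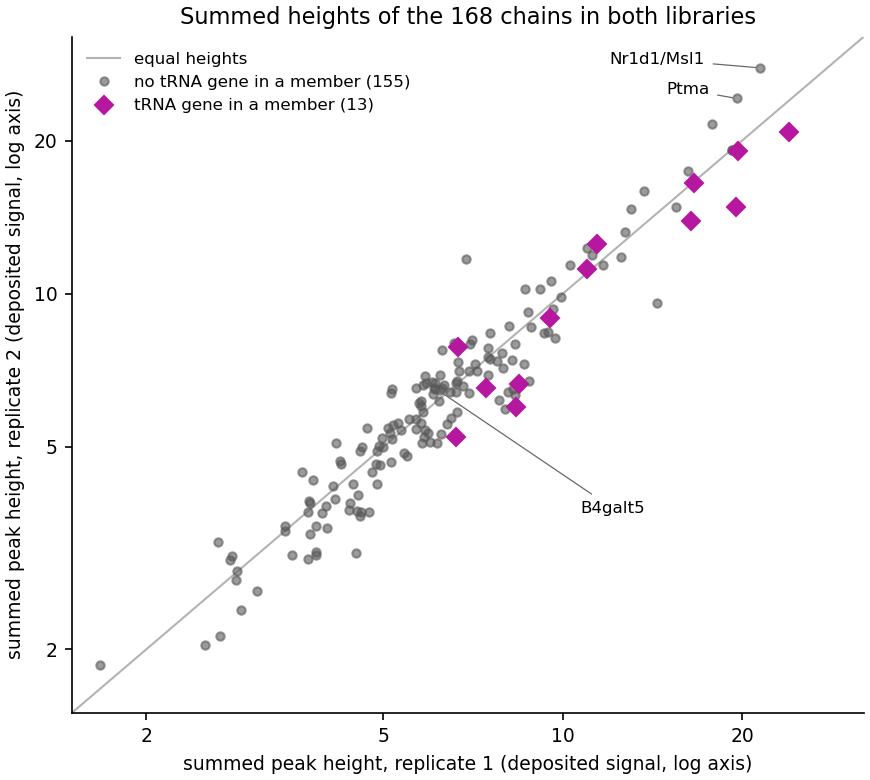
Summed peak height of each of the 168 chains in replicate 1 (x axis) and replicate 2 (y axis), both as deposited signal on log axes; diamonds are the 13 chains with a tRNA gene in a member, circles the other 155, and the line marks equal sums. The tRNA chains run from 6.62 to 24.0 in replicate 1, all above the median of 6.13 over all chains, and from 5.23 to 20.8 in replicate 2, where those near Fcgr4 and Zfp184 are below the median of 6.35; the chain between Nr1d1 and Msl1 is highest in replicate 2 at 27.8.

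Another small RNA gene lay beside the chain with the third most members. The 4.5S RNA is a short RNA of rodents that is made by RNA polymerase III and is related to the B1 repeat family. The chain at chr6:47646741-47653240 had 8 members and ended 1681 bp before the gene Rn4.5s (chr6:47654921-47655094, minus strand), and the nearest protein-coding gene was Ezh2, of the Polycomb methyltransferase, 51400 bp away. Its summed heights were 16.2 and 17.4. The first 5 members were low, between 0.358 and 0.776 in replicate 1 and between 0.492 and 0.742 in replicate 2. The sixth stood at 7.42 and 8.50, followed by members at 4.06 and 3.84 and at 1.86 and 1.88. The sixth member shared an unbroken run of 88 bases with the 4.5S RNA gene, as shown above. Runs as long occurred in 3 of the 31731 distal regions (0.00945%), while in the 7 other members the longest shared run was 8 to 12 bases. In this member 72.8% of the 31-base words were single copy, and in the last member 0%. RefSeq placed transcript starts within 1 kb of 7 of the 8 members, which GENCODE M21 did not list.

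The chain with the highest summed height in replicate 2 and in the mean of both libraries, though in replicate 1 below the chain at Ctc1, had sums of 21.4 and 27.8. It lay at chr11:98782201-98789160 between 2 genes, 6868 bp from Nr1d1, the gene of the clock repressor REV-ERB alpha, and 6356 bp from Msl1, a gene of a histone acetyltransferase complex. It held no tRNA gene, and all of its sequence was single copy. Its 6 members stood at 2.14 and 2.26, 6.50 and 7.99, 3.32 and 4.23, 2.17 and 2.93, 5.0 and 7.29, and 2.27 and 3.07. Every member was higher in replicate 2. All 6 exceeded the median of the members, 1.25 and 1.23. The tallest carried the letters CACGTG, which occurred in 7.91% of members and 6.22% of all distal regions. They were also searched for only after this chain had been seen. The sequences shown for the chains at Ctc1 and near Olfr1423 hold the same letters, which are not marked as a motif there.

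The Ptma chain came next among chains without tRNA genes, with sums of 19.6 and 24.2. Ptma encodes prothymosin alpha, a small acidic nuclear protein. The chain ran from chr1:86525281 to 86533720 across the gene, with 2 promoter regions between its members, which are not counted in it. The first member, which ended 1206 bp before the nearest start site, stood at 10.5 and 13.0, and the others at 3.27 and 4.58, 0.800 and 1.45, 2.87 and 3.19, and 2.20 and 2.02. The first member thus gave 53.4% and 53.6% of the sum. A further chain lay at chr1:86430054-86443020, between Tex44, 2002 bp away, and Ptma, 83706 bp away, with 6 members that summed to 19.2 in both libraries. Its tallest member stood at 9.39 and 9.02, and the other 5 between 1.06 and 3.37 in replicate 1 and between 1.17 and 3.66 in replicate 2.

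The tallest member of all, 13.2 in both libraries, lay at chr8:126666501-126666760, 72515 bp from the nearest protein-coding start site, that of Irf2bp2, a corepressor gene. Its chain (chr8:126665641-126668598) had 5 members, the others at 1.10 and 1.27, 1.46 and 1.13, 2.66 and 2.59, and 0.717 and 1.04. The tallest member gave 69.0% and 68.7% of the sum, the highest such share of the 168 chains in replicate 1. A chain of the same shape lay at chr13:84345141-84349600 beyond the end of Tmem161b, 49000 bp from the gene. Of its 5 members, which summed to 13.7 and 15.9, the one at chr13:84347981-84348300 stood at 9.35 and 11.4, and the others did not exceed 1.65 in either library.

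The chain at chr11:3123221-3132320 overlapped Sfi1, a gene of a centriole-associated protein. Its 4 members stood at 1.86 and 2.43, 7.02 and 8.55, 6.57 and 8.14, and 2.32 and 2.52, and summed to 17.8 and 21.6. Only 37.4% of its 31-base words were single copy. Among the chains with most members, that at chr11:88890993-88896240, 26407 bp from Akap1, had 7 members, sums of 6.99 and 7.97 and 23.8% single-copy words. The lowest share, 7.75%, was that of a chain of 4 near Pramef17, with sums of 3.65 and 4.47. In all, 13 chains had under 90% single-copy words, and in the median chain all words were single copy.

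The chain with most members was not a tall one. At chr2:167291641-167304266, 18 members lay within 12626 bp at the end of B4galt5, a gene of a galactosyltransferase that makes lactosylceramide. The gene lies on the minus strand (chr2:167298444-167349183), and 9 members fell inside it, 5 of them on exons, while the other 9 lay beyond its end. Heights ran from 0.131 to 1.07, with a median of 0.281, in replicate 1 and from 0.133 to 0.976, with a median of 0.300, in replicate 2. The tallest was that shown above in replicate 1 and its right neighbour in replicate 2. The summed heights of 6.08 and 6.54 were near the median over all chains, 6.13 and 6.35, although the chain had most members. A chain of 7 at chr3:93443535-93447940, inside Tchh, the gene of the hair follicle protein trichohyalin, was of the same low kind. All of its members were exonic, with heights from 0.287 to 1.65 and from 0.400 to 1.44, and it summed to 5.36 and 5.40.

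**Figure D2:**
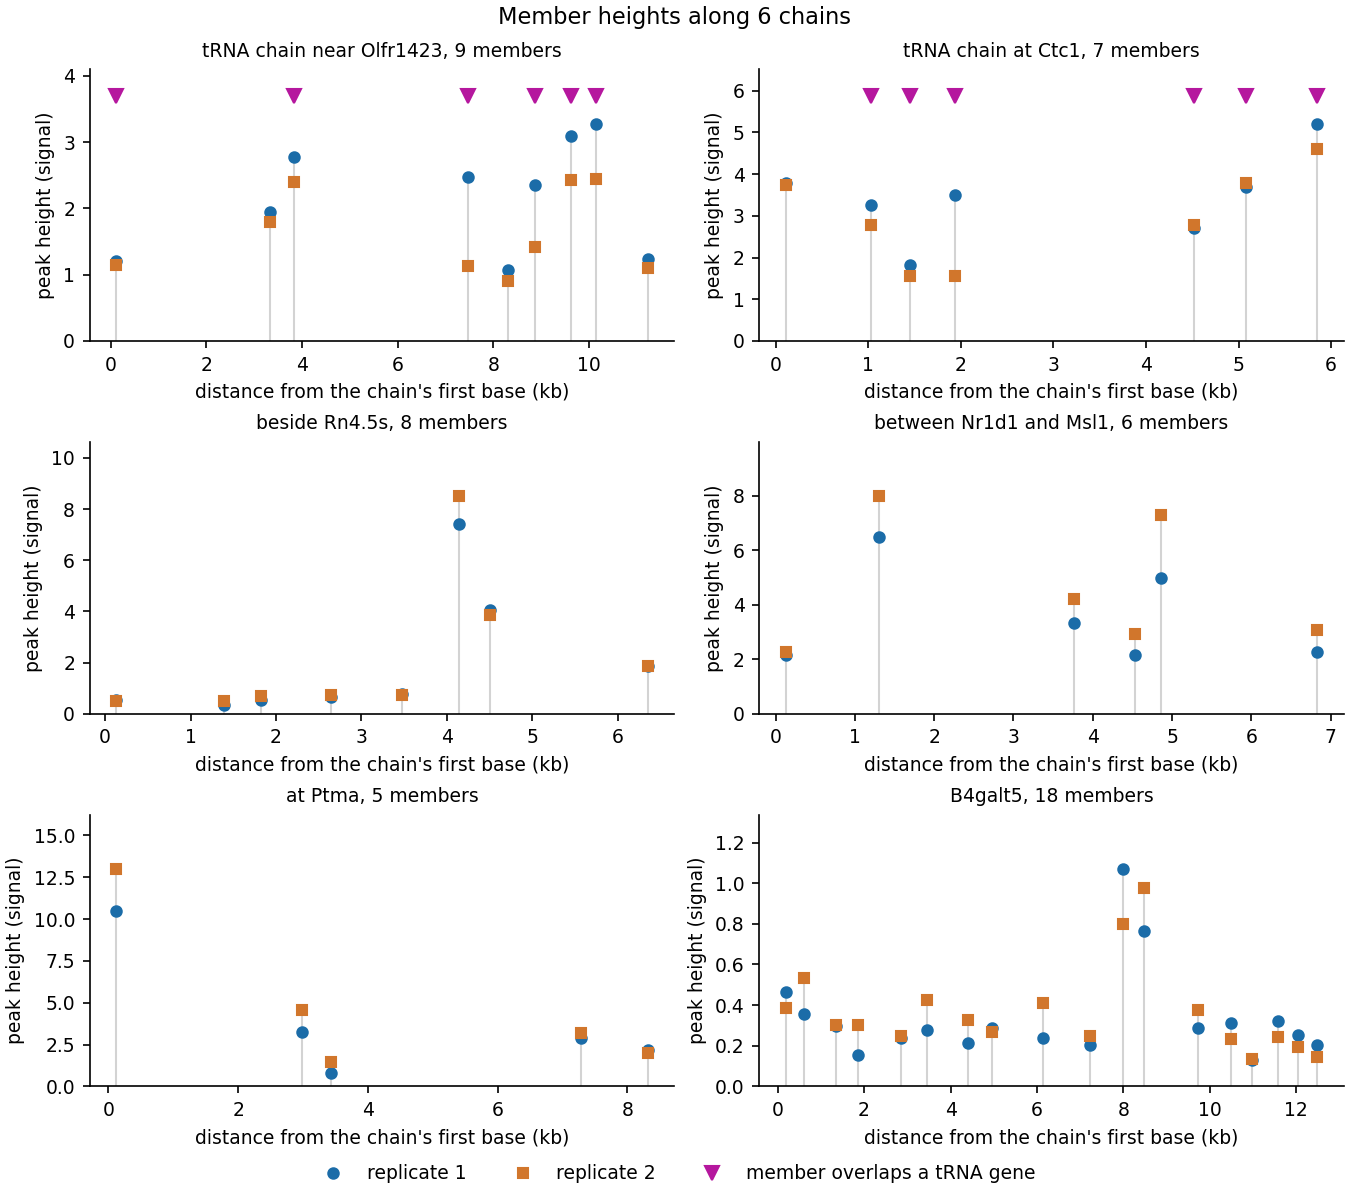
Peak height (deposited signal) of each member of 6 chains against its distance from the chain's first base in kb; circles are replicate 1, squares replicate 2, triangles mark members over a tRNA gene, and each panel has its own height scale. Members at Ctc1 and between Nr1d1 and Msl1 are all above 1.5, a single member leads at Ptma (10.5 and 13.0), and the 18 members at B4galt5 stay at or below 1.07.

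Other chains with 7 members lay in genes of a transcription factor and of a signalling protein. In Nfic, a gene of the NFI family of transcription factors, which act in astrocyte and neuron maturation, all 7 members lay inside the gene, at chr10:81421541-81435760, among 4 promoter regions. Along the chain they stood at 0.299 and 0.467, 0.442 and 0.400, 0.561 and 0.609, 0.705 and 0.709, 1.87 and 1.72, 6.57 and 5.69, and 2.09 and 2.19. The sums were 12.5 and 11.8. In Rasgef1a, a gene of a Ras exchange factor, the 7 members at chr6:118013161-118023300 were more even, from 0.800 to 2.65 in replicate 1 and from 0.817 to 1.53 in replicate 2, with sums of 9.72 and 8.18.

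By span per member, the densest chains covered little more than 1 kb. Chains of 4 within 1260 bp lay at chr2:61655421-61656680, 1250 bp beyond Tank, a gene of NF-kB signalling, and at chr4:46086761-46088020 inside Tmod1, a gene of an actin-capping protein. The members near Tank stood at 1.43 and 1.53, 1.07 and 1.13, 0.872 and 0.867, and 3.43 and 3.04. Those in Tmod1 stood at 1.76 and 1.73, 1.25 and 0.659, 1.78 and 1.23, and 3.22 and 2.30. In Casz1, a zinc finger factor gene, 5 members within 1655 bp, 4 of them exonic, ran from 0.549 to 1.37 and from 0.659 to 1.47, and a chain of 4 within 1508 bp lay 37978 bp from Cstad, with sums of 7.94 and 7.16. The chain near Zfp692 described above was the other one of these 5. Over all 168 chains, of 591 gaps between members 65 (11.0%) were of at most 100 bp and 8 were of 0 bp, and joining peaks up to 100 bp apart before chaining left 136 chains.

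Over all 168 chains the number of members was 4 in 119, 5 in 34, 6 in 6, 7 in 6, and 8, 9 and 18 in 1 each. The span ran from 1260 to 17680 bp with a median of 6513 bp, and the gap between neighbours had a median of 840 bp and a highest value of 4980 bp. Summed heights ran from 1.67 to 24.0 (median 6.13) in replicate 1 and from 1.86 to 27.8 (median 6.35) in replicate 2. The lowest were those of a chain in Zfand3. Across chains the sums of the libraries had a Spearman's rho of 0.945, and across members the heights one of 0.914. Both are descriptions over sites of the same 2 libraries, which are not independent replicates. Heights of neighbouring members in a chain were less alike, with rho 0.405 over 591 pairs.

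Of the 759 members, in 5 (0.659%) the ratio of the libraries was over 2-fold from its median, against 1.69% of lone regions. The largest gap between libraries was that of the tRNA-Thr member at Ctc1, 3.49 and 1.55. A member near Pcdhb1 on chromosome 18, in the span of Gm37388, followed with 0.728 and 1.56 and was the only one of the 5 higher in replicate 2. The others were a tRNA-Lys member of the chain near Olfr1423, 2.47 and 1.13, a member at chr1:159393361-159393580 near Cop1, 1.85 and 0.884, and a member in Phactr1, a gene of an actin and phosphatase regulator, 1.43 and 0.701.

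Members were taller than lone regions in both libraries. Their median heights were 1.25 and 1.23, with middle 50% ranges of 0.860 to 1.89 and 0.834 to 1.82, against 0.884 and 0.792 for lone regions and 1.03 and 0.959 for regions in chains of 2 or 3. The ratio to lone regions was 1.42 and 1.56 (mean 1.49 ± 0.0983, SD, n = 2), and without the tRNA chains 1.36 and 1.52. Both heights exceeded the lone medians in 526 members (69.3%), and in 63 chains this held for every member. The same share was not counted for regions of chains of 2 or 3, whose medians of 1.03 and 0.959 also exceeded the lone medians. Just outside the rule, regions of triples had medians of 1.11 and 1.08, and just inside it, regions of chains of 4 had 1.24 and 1.25. Chains of 5 stood at 1.25 and 1.21, chains of 6 at 1.68 and 1.85, and chains of 7 or more at 0.967 and 1.04. Height is tied to the rule, which required a call in both libraries, so these values are a description. With peaks of replicate 2 alone the ratio turned to 0.887 (777 chains), and with peaks of replicate 1 alone it was 1.25 (536 chains).

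**Figure D3:**
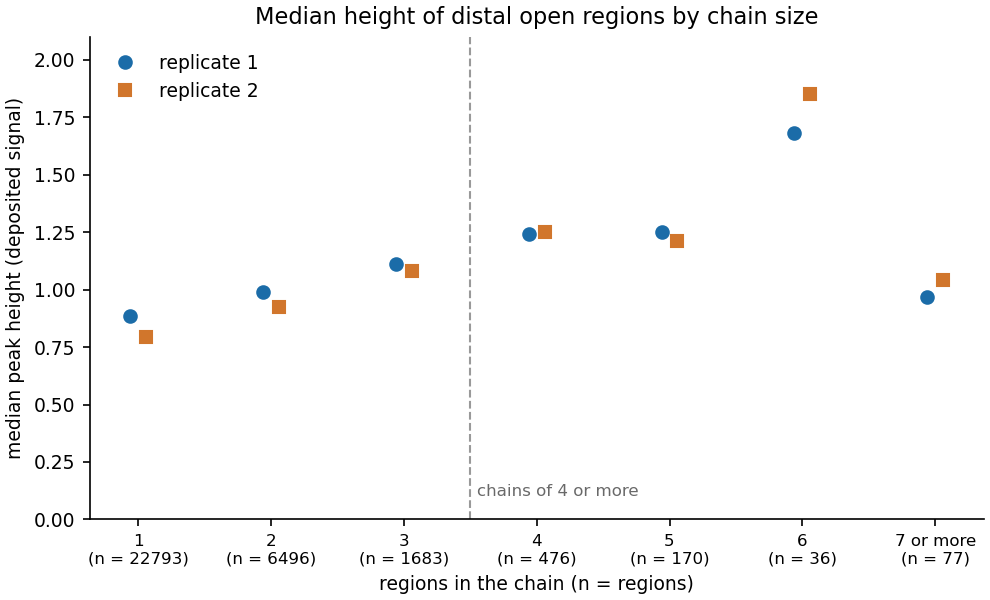
Median peak height (deposited signal, y axis from 0) of distal regions by the number of regions in their chain (x axis, with the number of regions), for replicate 1 (circles) and replicate 2 (squares); the dashed line separates chains of 4 or more. Medians run from 0.884 and 0.792 for lone regions to 1.68 and 1.85 in chains of 6, and are 0.967 and 1.04 in chains of 7 or more, which include the 18 low members at B4galt5.

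Members also differed from lone regions in composition, width and position. Their median GC content was 54.3% against 51.1%, their CpG density 23.0 against 16.7 per kb and their width 260 against 221 bp. They lay closer to protein-coding start sites, a distance related to the one the rule filters on, with a median distance of 15079 against 29079 bp, and 17.9% against 37.7% were over 50 kb away. Fewer of them, 37.5% against 47.4%, lay inside a protein-coding gene, and 7.77% against 5.91% touched a coding gene's exon. RefSeq, unlike GENCODE, had a transcript start within 1 kb of 10.3% of members and 4.18% of lone regions, and 39 chains had such a member. Peaks of both libraries in the shorter list were present at 58.1% of members and 46.4% of lone regions. Regions in chains of 2 or 3 lay between members and lone regions in all of these values. Their median GC content was 52.5%, their median width 240 bp and their median distance to a protein-coding start site 27047 bp. Of them 44.8% lay inside a protein-coding gene, and 49.7% had peaks of both libraries in the shorter list. On chromosomes the share of distal regions that were members ran from 0.701% on chromosome 16 and 0.891% on chromosome 3 to 3.65% on chromosome 17 and 3.97% on chromosome 6.

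A host gene, a protein-coding gene that spans at least 50% of the members, was found for 67 chains (39.9%, exact binomial 95% interval 32.4 to 47.7, counting error only), and in 47 of them it held every member. The 67 hosts were of several kinds and were not tested against a list; they included Tchh, a gene of hair follicle protein, and 3 genes of neurons described next. In Rbfox3, the gene of the neuronal nuclear protein NeuN, a chain of 4 stood at 2.41 and 2.18, 1.12 and 1.22, 1.52 and 1.42, and 1.59 and 1.05. In Myt1l, a neuronal zinc finger factor gene, 5 members summed to 7.81 and 6.18 at 128481 bp from the nearest start site. In Nrxn2, a presynaptic adhesion gene, 4 members summed to 6.65 and 6.75. The 101 chains without a host lay between genes or had fewer members in each. The nearest protein-coding start site was within 10 kb of 78 chains, over 50 kb from 28 and over 100 kb from 14. The farthest of all was a chain of 5 at 554706 bp from Zfp608, a zinc finger gene, with sums of 3.95 and 3.71, and a chain of 4 lay 181177 bp from the neuropeptide gene Npy, with sums of 2.51 and 2.04.

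Of 20780 autosomal protein-coding genes, 161 (0.775%) had a member in their span or within 10 kb of it. Of 228 genes in 18 lists of cell types and functions, 7 did (3.07%), and the median number of distal regions was 1 for these genes against 0 for all. Among 20 genes of NFI, SOX and other transcription factors, 4 did: Nfic with 8 members, and Sox8, Bcl6 and Zbtb16 with 4 each. Distal regions lay at 17 of these 20 genes, with a median of 3.00 per gene against 0 for all genes. Zbtb16 encodes a zinc finger repressor, and the chain inside it at chr9:48733869-48740460 stood at 1.84 and 1.11, 2.54 and 1.31, 5.99 and 3.54, and 3.99 and 3.64, higher in replicate 1 at each member. In Bcl6, a repressor gene, the members stood at 1.96 and 1.74, 1.76 and 1.54, 2.47 and 2.08, and 0.776 and 1.02. At Sox8, a glial SOX factor gene, they stood at 1.55 and 1.40, 1.19 and 1.18, 1.85 and 1.60, and 1.79 and 1.35.

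Of 18 immediate early genes, which neuronal activity switches on, 1 had members, the zinc finger factor gene Egr1. A chain of 4 lay upstream of it at chr18:34849712-34855580, between Reep2, which was nearer at 2249 bp, and Egr1, 4243 bp away. Its members stood at 1.93 and 1.92, 1.92 and 2.19, 1.41 and 1.33, and 3.59 and 3.18. A second chain, at chr18:34884461-34887660 and 19477 bp beyond Egr1, summed to 6.27 and 7.74 and lay outside the 10 kb counted. Of 12 genes in the synaptic list 1 had members, Rbfox3, which encodes the nuclear protein NeuN and not a protein of the synapse. Of 14 circadian genes Nr1d1 had members, 2 of the 6 in the chain next to it. The lists of excitatory neurons, cortical layers, interneurons, astrocytes, oligodendrocyte precursors, myelin, microglia, vessels, choroid plexus, striatum, liver, blood, housekeeping genes and MEF2 and CREB factors had none, although distal regions lay at 9 of the 14 excitatory and 12 of the 14 cortical layer genes. With 0.775% of all genes having a member, a count of 0 in lists of this size does not set them apart. Over all genes, B4galt5 had most members, 18, followed by Nfic with 8 and by Ctc1, Rasgef1a, Tchh and Aurkb with 7 each. The members counted for Ctc1 and Aurkb were those of the chain at Ctc1. Those counted for Nfic were the 7 of the chain inside it and a member of another chain, inside Celf5, that began 9826 bp from Nfic.

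Between members, DNA was listed in the deposited cut rate track more often than between regions of shorter chains. The track lists bases whose false discovery rate was below 0.05. Of the bases in the gaps between members, outside every peak, 5.42% in replicate 1 and 7.65% in replicate 2 were listed, against 3.46% and 4.12% in gaps of pairs and triples. Gaps were shorter between members, with medians of 876 and 1386 bp among gaps of at least 1 bp, and short gaps were listed most. Within gaps of 1 to 500 bp the shares were 38.9% against 29.7% in replicate 1 and 44.9% against 34.4% in replicate 2. In gaps of 501 to 2000 bp they were 7.14% against 4.96% and 10.3% against 6.07%, and in gaps of 2001 to 5000 bp 2.53% against 1.86% and 4.27% against 2.22%. The members had the higher share in all 3 classes and both libraries. Another peak, called in 1 library alone or lying near a start site, stood in 17.7% of these gaps and in 13.1% of those of pairs and triples. From the shortest class to the longest these shares were 4.82% against 3.82%, 19.5% against 14.9%, and 30.6% against 18.4%. The members thus had more such peaks in each class, and their part in the shares was not tested.

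**Figure D4:**
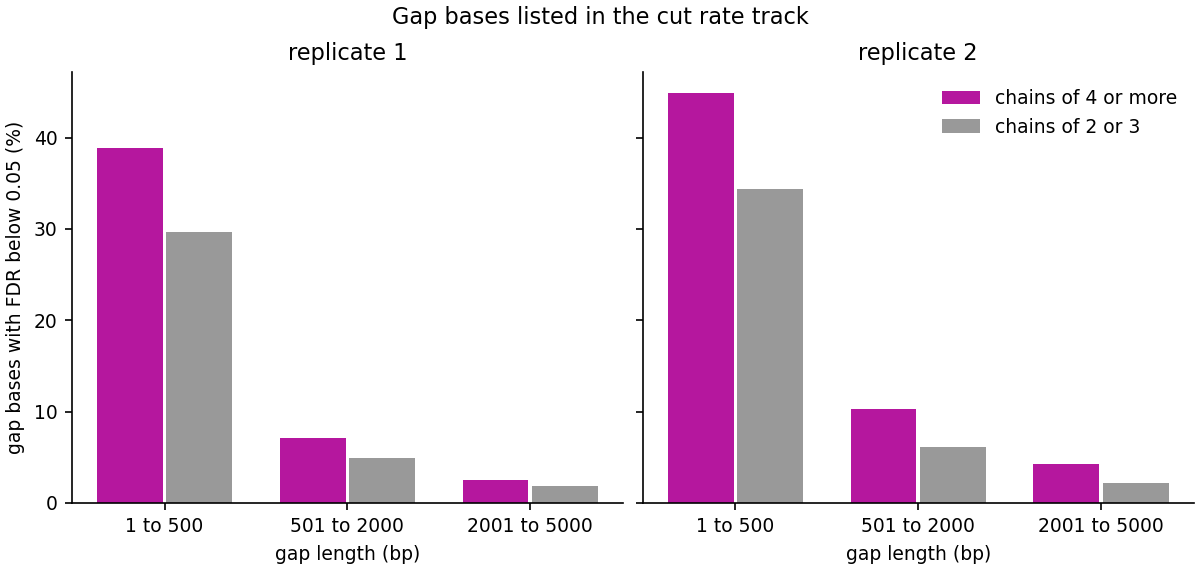
Share of bases in gaps outside peaks that the deposited cut rate track lists below a false discovery rate of 0.05 (y axis, percent, from 0), by gap length (x axis, bp), for chains of 4 or more and chains of 2 or 3; left panel replicate 1, right panel replicate 2. Chains of 4 or more are higher in each class, from 38.9% against 29.7% in the shortest gaps of replicate 1 to 2.53% against 1.86% in its longest.

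Footprints are short stretches inside an open region that are cut less than their surroundings and may be covered by a bound protein. Members had 9.64 and 11.2 footprints per kb of peak, lone regions 8.87 and 10.5, a ratio of 1.09 and 1.06. Members over tRNA genes had 15.5 and 15.1 per kb, near the 16.1 and 17.9 of lone regions over tRNA genes, and members of chains without tRNA genes 9.27 and 10.9. At least 1 footprint lay in 83.7% of members and 78.4% of lone regions, which were narrower, in replicate 1. In chains of 2 or 3 this share was 82.0%.

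The reference sequence of the members was searched on both strands for the consensus letters of 22 motifs, and the density per kb was divided by that of lone regions. Intervals are exact 95% intervals of the counts, cover counting error only and are not adjusted for the number of motifs. A motif match is a description of letters, not a bound site. Letters of AP-1 (TGANTCA), bound by Fos and Jun proteins, were the sparsest, at a ratio of 0.532 (0.416 to 0.669, 74 matches), and were present in 8.96% of members and 12.8% of all distal regions. The NeuroD and Neurog E-box (CAGATG) stood at 0.696 (0.609 to 0.794, 232 matches), present in 25.6% of members and 28.9% of all distal regions. The partial NFI site (TTGGCA) stood at 0.703 (0.607 to 0.811, 195 matches), with 22.0% and 24.3%, and the CTCF motif at 0.724 (0.551 to 0.933, 61 matches), with 7.91% and 8.59%. All 4 stayed below 1 when lone regions were weighted to the members' GC content. The weighted ratio of AP-1 was then 0.596. With the letters reversed but not complemented, the ratio was 0.809 for AP-1 and 0.871 for the E-box, also below 1. It was 1.37 for the partial NFI site and 0 for CTCF.

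Denser in members were the letters of the GC box (GGGCGG), to which Sp factors bind, at 1.97 (1.72 to 2.26, 229 matches), present in 22.1% of members and 11.3% of all distal regions. Reversed but not complemented, the letters of the GC box had a still higher ratio, 2.28, so the density was not particular to the site. Weighted for GC content, the ratio of the GC box was 1.13. The ROR site (TAGGTCA), bound by orphan nuclear receptors and, in part, by REV-ERB proteins, stood at 1.91 (1.20 to 2.89) and at 2.00 with that weighting. It had 24 matches, in 3.16% of members and 1.37% of all distal regions. The cAMP response element (TGACGTCA) stood at 2.00 on 11 matches, with an interval from 0.976 to 3.70 that includes 1, in 1.45% of members and 0.646% of all distal regions. With reversed letters the ratio was 0.903 for the ROR site and 0.661 for the cAMP response element. EGR letters rested on 4 matches.

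**Figure D5:**
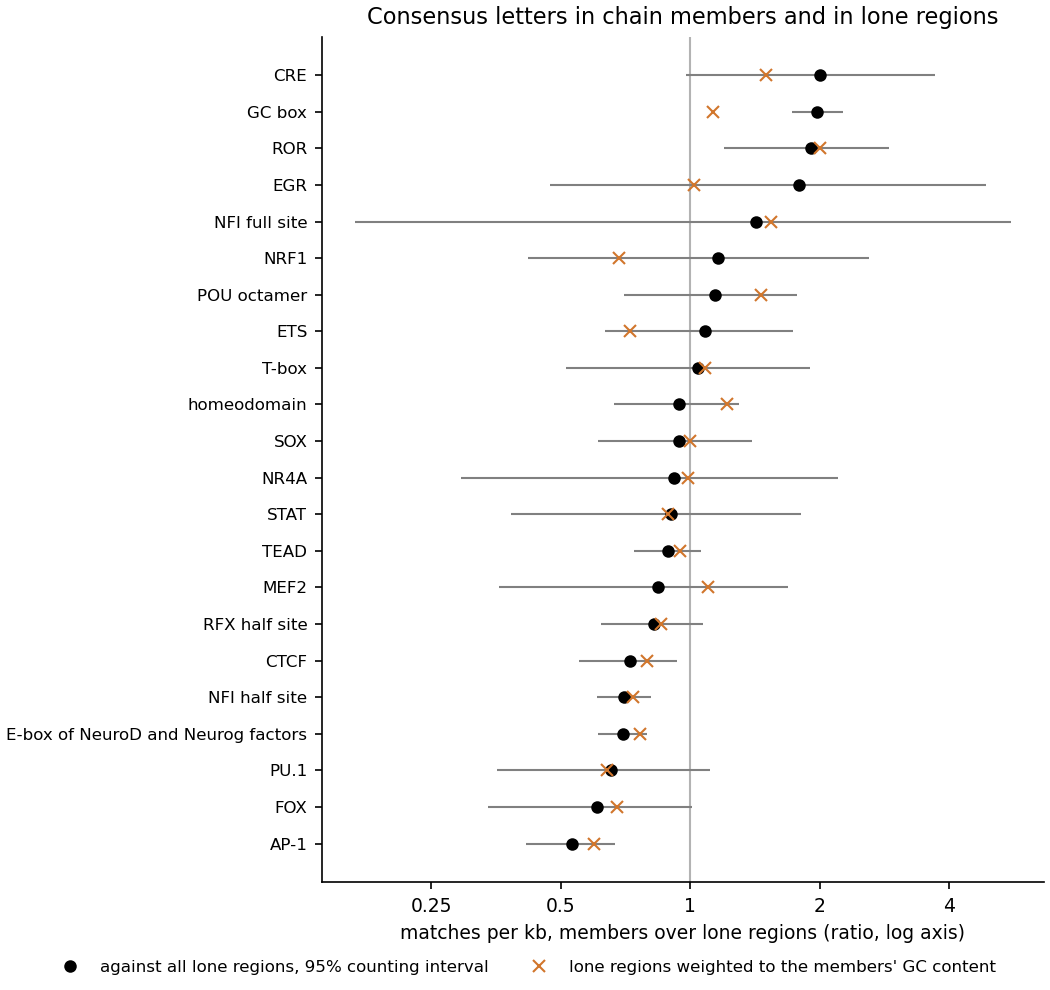
Matches per kb in members divided by matches per kb in lone regions (x axis, log scale) for 22 consensus motifs (y axis); dots with bars are the ratio with its exact 95% counting interval, and crosses the ratio with lone regions weighted to the members' GC content. AP-1 is lowest at 0.532, and the GC box moves from 1.97 to 1.13 with the weighting, whereas the ROR site stays near 2.00.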

How the data were processed

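The peak lists that the authors deposited are per library, in assembly mm10 per the labels, and their signal values are the peak heights used here, scaled per library on an unstated scale. Deposited footprints carry the constant p-value 0.01. The authors' cut rate track holds a q-value per run of bases, its false discovery rate, and lists those below 0.05. Aligner and callers: not given in the sources used here. Read depths were not used, so no sampling error of a height could be computed; the gap between the 2 libraries is the only measure of error. Each library has a longer and a shorter peak list; the longer was used.

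Peaks overlapping by at least 1 bp were joined, and the tallest peak of a library gave a region's height. Start sites came from GENCODE M21, and genome sequence, tRNA genes, Rn4.5s and other transcript starts from RefSeq on GRCm38, the same build. A region was single copy by the share of its 31-base words that occur once over 65 reference sequences. Python 3.11.15 with numpy 2.4.6, pandas 2.3.3, scipy 1.17.1 and numba 0.67.0 was used, and the chaining, overlap and motif steps were checked on simulated data. Alternatives changed the gap, chain size, peak list, overlap, start-site distance, height minimum and library.

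The members, gene lists and motifs were chosen with earlier results of these data known. Named chains were the 10 with most members, the 10 with the highest mean summed height and the 5 with the smallest span per member; named members were the 10 tallest and the 5 with the largest gap between libraries; per list the 3 genes with most members were named. All chains with tRNA genes, the other members of the chain near Tmem161b, and the chains in Rbfox3, Myt1l, Nrxn2, Zfand3 and near Zfp608, Npy, Pramef17 and Egr1 were described after their values were seen. Sequences on chromosome 18 were not used, and 1 motif and 1 chain's host gene are not reported here.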

Additional observations from a re-analysis of the deposited data

How the results depend on the processing

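The number of chains, 168, was 59 with gaps of at most 2 kb and 394 with 10 kb, 729 for chains of at least 3 and 15 for at least 6, 38 with the shorter peak lists and 78 with peaks at or above the median height. Leaving out 1 library gave 536 to 777 chains, since shared calls were no longer required. The other alternatives gave 133 to 217 chains and height ratios of 1.40 to 1.53. The height ratio of members to lone regions, 1.49, was 1.36 for chains of at least 3, 1.27 with the shorter lists, 1.24 with peaks at or above the median height and 1.25 against regions of chains of 2 or 3. Without replicate 1 it fell below 1, to 0.887, and without replicate 2 it was 1.25; the cause was not tested. The share of chains with a host, 39.9%, was 23.7% with the shorter lists and 46.1% to 52.1% with 1 library.

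The share of protein-coding genes with a member, 0.775%, was 0.265% with gaps of 2 kb, 1.87% with 10 kb, 2.83% for at least 3 regions, 0.0818% for at least 6, 0.154% with the shorter lists, 0.529% at over 2 kb from start sites, 0.929% with protein-coding start sites only, 0.419% with the taller peaks and 2.11% to 3.77% with 1 library. It was 0.395% without flanks and 1.82% with 50 kb. Alternatives added after the data were seen gave 0.659% both with peaks up to 100 bp apart joined and without regions under 90% single copy. The cut rate ratio of gaps, 1.71 as the mean of both libraries, was 1.31 in gaps of 1 to 500 bp, and the footprint ratio, 1.07, was 1.04 without tRNA chains. Motif ratios lay within their counting interval in 65 of 66 cases, the exception being the GC box at 1.13 with GC weighting. Motifs with few matches have wide intervals, so this count does not show that their ratios held. With GC weighting ETS went from 1.08 to 0.726, NRF1 from 1.16 to 0.682, EGR from 1.79 to 1.02 and MEF2 from 0.842 to 1.10. AP-1 moved less, from 0.532 to 0.596, as did ROR, from 1.91 to 2.00.

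No paired analysis was possible because both libraries form 1 group and no result comes from a test. Depth is unknown here, which limits the precision of every height.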
